A study of Drosophila melanogaster with 9 samples.

Results

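Glutamate and GABA are, beside acetylcholine, fast transmitters of the insect nervous system. In neurons their receptors are largely a late feature, made once a cell has left the progenitor state. Which cells made them was not measured here. Glutamate acts in Drosophila through excitatory cation channels of the AMPA, kainate and NMDA types and through a chloride channel that vertebrates lack. GABA acts through Cys-loop chloride channels built on Rdl and through the G-protein-coupled GABA-B receptor. The genes described here are 10 such receptor subunits, taken by symbol from the deposited table of normalized counts: Glu-RI, Glu-RIB, clumsy, Nmdar1, Nmdar2, GluClalpha, Rdl, Grd, Lcch3 and GABA-B-R1. All 10 symbols were found among the 15340 genes of the table. The rule uses the symbol and no measured value, but the set was drawn up with earlier results of these data known.

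RNA was measured in ventral nerve cords (VNCs) of late L3 Drosophila melanogaster larvae in 3 genotypes with 3 biological replicates each, A, B and C. All 9 samples carried nab-GAL4 with UAS-prosperoRNAi and UAS-dicer2, so that every VNC, the reference included, held tumors made of neuroblasts (NBs) that lacked the differentiation factor Prospero. The first genotype had nothing more and is written nab>prosRNAi, the second also had UAS-chinmoRNAi (nab>prosRNAi, chinmoRNAi) and the third also had UAS-chinmoFL (nab>prosRNAi, chinmo). The transcription factor Chinmo was thus knocked down or overexpressed in separate animals, with tumors induced in the same way. The paper reports that late L3 tumors were smaller with chinmoRNAi and larger with added Chinmo. Animals spent 7 days at 18°C and then 3 days at 29°C, where GAL4 is more active. Each sample was a pool of dissected VNCs, no VNC without tumors was sequenced in these libraries, and nab-GAL4 drives the transgenes in the NBs of the VNC and central brain, so tumor cells, neurons and glia were measured together.

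The libraries held 30677075 to 43415151 reads on genes. The summed level of 12 neuronal markers ran from 115256 to 156627 normalized counts in nab>prosRNAi, chinmoRNAi, from 75158 to 104001 in nab>prosRNAi and from 35578 to 66149 in nab>prosRNAi, chinmo. That of 9 NB and precursor markers was 69067 to 89297, 135681 to 153399 and 110704 to 132060 in the same order, and that of 9 glial markers 46959 to 52649, 39425 to 54045 and 41703 to 61605. The NB and glial sums hide genes that moved apart. In nab>prosRNAi, chinmo over nab>prosRNAi, 3 of the 9 NB markers were lower and 0 higher, beside 8.26% and 9.74% of all genes. Their log2 fold changes ran from -0.61 to 0.28 and 6 were negative. The mean of mira, the largest part of the sum, went from 58697 to 42913 and that of dpn from 12803 to 14368. In nab>prosRNAi, chinmo over nab>prosRNAi, chinmoRNAi, 5 of the 9 glial markers were lower and 2 higher, with log2 fold changes from -3.22 to 1.23. Over all genes 22.7% were lower and 19.9% higher there. Markers of tissues outside the VNC varied within and between genotypes, with 10 muscle markers at 7401 to 8052, 6555 to 14548 and 2641 to 8240, and 6 fat body markers at 180375 to 505642, 54975 to 212274 and 12780 to 123377. Hemocyte markers (5 genes) summed to 14635 to 28985, 11064 to 21550 and 7831 to 16522, disc markers (5 genes) to 1776 to 3167, 1309 to 1627 and 586 to 1102, and salivary gland markers (6 genes) to 63.2 to 577, 232 to 907 and 33.2 to 116. No marker of any list was at 0 in all 3 libraries of a genotype, and the part of these tissues in the receptor values was not tested.

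Of the receptor genes, 9 were detected in every library and were highest in nab>prosRNAi, chinmoRNAi, intermediate in nab>prosRNAi and lowest in nab>prosRNAi, chinmo by their means. In nab>prosRNAi, chinmo the mean of Lcch3 was 24.0% of that in nab>prosRNAi, chinmoRNAi, that of Glu-RI 25.9%, that of Glu-RIB 27.5% and that of Rdl 45.6%. Grd kept 70.4% and did not pass the test in any comparison. Since VNCs were measured whole, fewer neurons and less receptor RNA per neuron cannot be told apart in these values.

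**Figure D1:**
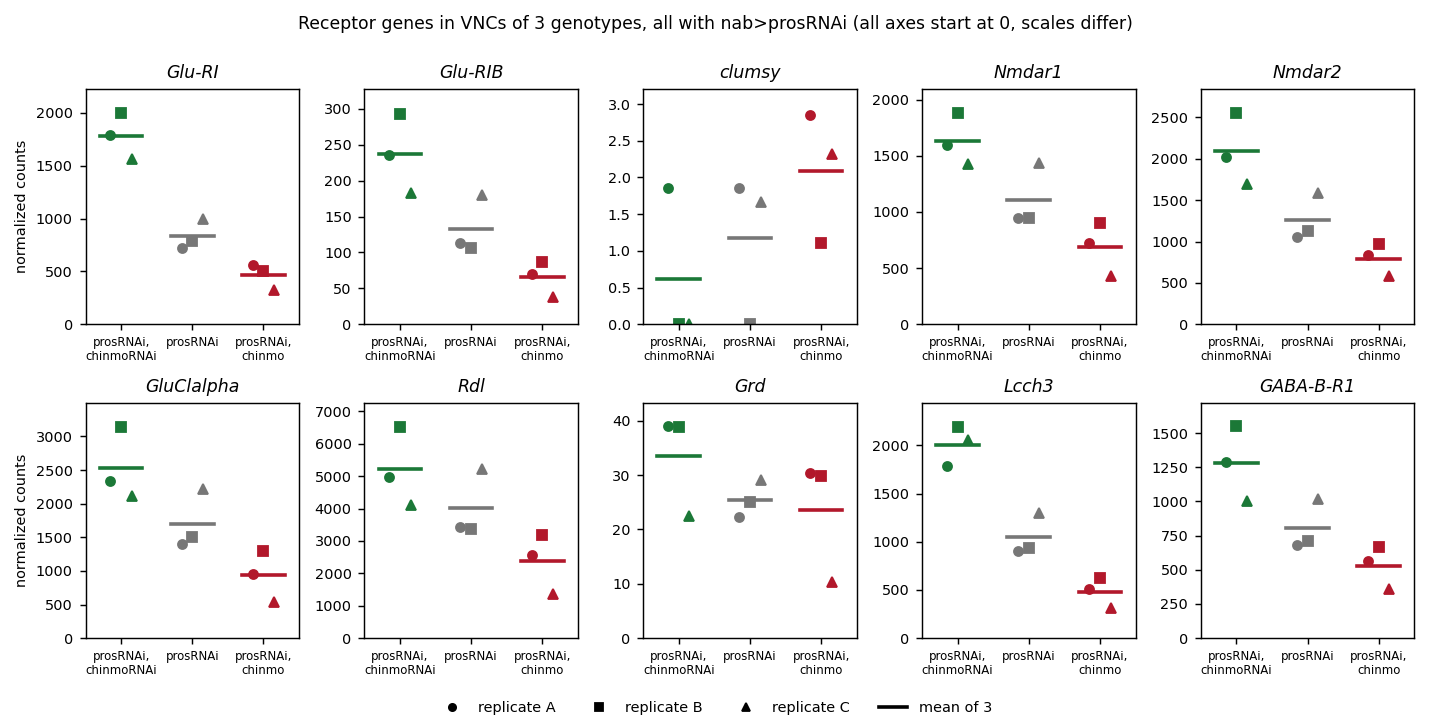
Normalized counts (y axis, starting at 0, a scale for each gene) of the 10 receptor genes in each library of the 3 genotypes (x axis), with the symbol giving the replicate and the line the mean of 3. Glu-RI, Glu-RIB, Lcch3 and Nmdar2 descend from left to right without overlap between genotypes, narrowly for Glu-RIB. Grd overlaps throughout, and clumsy never exceeds 2.85.

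Levels of different genes were compared per kb of the longest annotated transcript. Lcch3 has 1 annotated transcript and Rdl 6. Which transcripts were present was not measured, so the order of genes depends on this choice of length. In nab>prosRNAi, chinmoRNAi, Lcch3 stood at 1056 normalized counts per kb (940 to 1150 over 3 libraries), above Rdl at 606 (480 to 760). Glu-RI at 468 (411 to 523), GluClalpha at 447 (373 to 555) and Nmdar1 at 392 (342 to 452) followed with overlapping ranges, then Nmdar2 at 309 (251 to 378) and GABA-B-R1 at 227 (178 to 275). A wide step separated these from Glu-RIB at 33.0 per kb (25.4 to 40.8), Grd at 8.23 (5.52 to 9.59) and clumsy at 0.181.

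The order was not the same in the other genotypes. In nab>prosRNAi the per-kb level of Lcch3 was 550 (475 to 685), overlapping that of Rdl at 467 (393 to 609). In nab>prosRNAi, chinmo, Rdl at 276 per kb (160 to 371) and Lcch3 at 254 (165 to 326) also overlapped, and Glu-RI, ahead of GluClalpha and Nmdar1 in nab>prosRNAi, chinmoRNAi by its mean, was behind them both here at 121 (84.4 to 147) and in nab>prosRNAi at 219 (188 to 262).

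**Figure D2:**
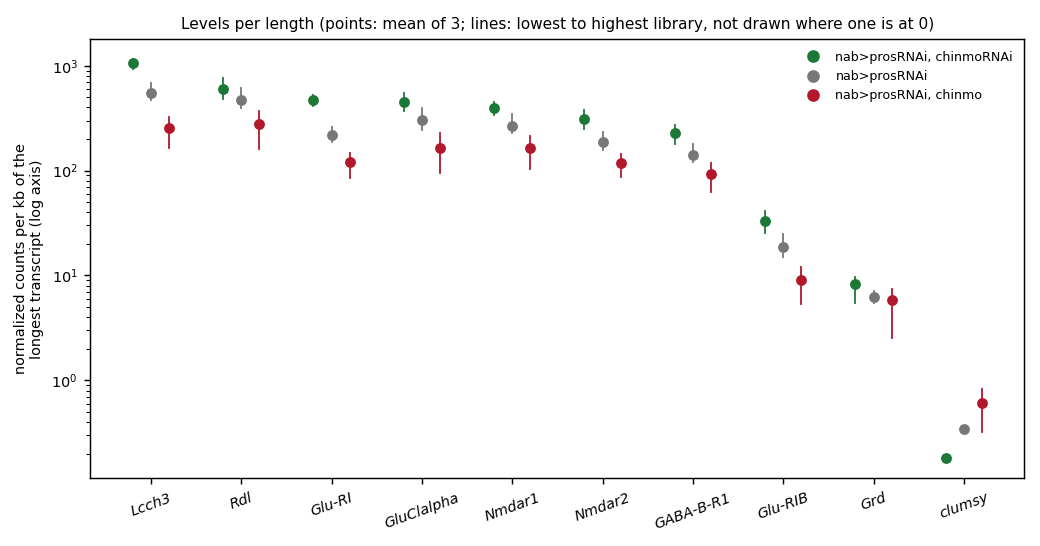
Normalized counts per kb of the longest transcript (y axis, log scale) for each receptor gene (x axis, ordered by its mean in nab>prosRNAi, chinmoRNAi), with points at the mean of 3 libraries and lines from the lowest to the highest library, left out where a library was at 0. Lcch3 leads at 1056 in nab>prosRNAi, chinmoRNAi and lies beside Rdl in the other genotypes, and Glu-RIB, Grd and clumsy lie well below the other 7 in all genotypes.

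Glu-RI and Glu-RIB encode subunits of the AMPA type. Glu-RI was at 1793, 1994 and 1567 normalized counts in replicates A, B and C of nab>prosRNAi, chinmoRNAi, at 717, 789 and 997 in nab>prosRNAi, and at 559, 507 and 322 in nab>prosRNAi, chinmo. The genotypes did not overlap, and the gap was wider on the side of nab>prosRNAi, chinmoRNAi. Glu-RI fell in nab>prosRNAi against nab>prosRNAi, chinmoRNAi by 1.10 on the log2 scale (SE 0.15, limma with Benjamini-Hochberg adjustment over all genes tested, adjusted p = 0.00216). It fell again in nab>prosRNAi, chinmo against nab>prosRNAi by 0.88 (SE 0.23, limma adjusted p = 0.0431). Glu-RIB, much rarer per kb, was at 236, 293 and 183 in nab>prosRNAi, chinmoRNAi, at 113, 107 and 180 in nab>prosRNAi, and at 70.3, 87.4 and 38.2 in nab>prosRNAi, chinmo. Replicate C of nab>prosRNAi lay just under the lowest library of nab>prosRNAi, chinmoRNAi. The first difference of Glu-RIB was a fall of 0.84 (SE 0.27, limma adjusted p = 0.0480), and the second had a log2 fold change of -1.06 (SE 0.37, limma adjusted p = 0.0925), which did not pass.

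Kainate-type subunits are represented by clumsy, which was not measurable. It had 2, 0 and 0 reads in nab>prosRNAi, chinmoRNAi, 2, 0 and 2 in nab>prosRNAi, and 3, 1 and 2 in nab>prosRNAi, chinmo. No library exceeded 3 reads, the floor used here, so no fold or test is given and its absence is not shown.

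Nmdar1 encodes the subunit that every NMDA receptor needs, and Nmdar2 its partner. Nmdar1 was at 1595, 1883 and 1427 normalized counts in nab>prosRNAi, chinmoRNAi, at 944, 947 and 1433 in nab>prosRNAi, and at 725, 899 and 434 in nab>prosRNAi, chinmo. Replicate C of nab>prosRNAi lay above the lowest library of nab>prosRNAi, chinmoRNAi, and the log2 fold change of -0.58 (SE 0.19, limma adjusted p = 0.0504) missed the threshold of 0.05. Nmdar2 was at 2027, 2558 and 1699 in nab>prosRNAi, chinmoRNAi, at 1060, 1122 and 1589 in nab>prosRNAi, and at 832, 968 and 585 in nab>prosRNAi, chinmo. The genotypes did not overlap, and Nmdar2 fell by 0.74 in the first comparison (SE 0.20, limma adjusted p = 0.0263). Its log2 fold change of -0.67 (SE 0.22) in nab>prosRNAi, chinmo against nab>prosRNAi had a limma adjusted p of 0.0817.

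GluClalpha encodes the glutamate-gated chloride channel, the target of ivermectin. It was at 2336, 3140 and 2114 normalized counts in nab>prosRNAi, chinmoRNAi, at 1393, 1497 and 2222 in nab>prosRNAi, and at 961, 1298 and 543 in nab>prosRNAi, chinmo. As for Nmdar1, replicate C of nab>prosRNAi reached into the range of nab>prosRNAi, chinmoRNAi. Neither step passed, with log2 fold changes of -0.58 (SE 0.21, limma adjusted p = 0.0733) and -0.92 (SE 0.33, limma adjusted p = 0.0944).

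Rdl, Lcch3 and Grd encode Cys-loop GABA receptor subunits. Rdl forms GABA-gated chloride channels by itself and is the target of cyclodiene insecticides, and in expression systems Lcch3 can join Rdl, or form a GABA-gated cation channel with Grd. Rdl was at 4970, 6531 and 4125 normalized counts in nab>prosRNAi, chinmoRNAi, at 3418, 3374 and 5231 in nab>prosRNAi, and at 2557, 3191 and 1372 in nab>prosRNAi, chinmo. Replicate C of nab>prosRNAi exceeded 2 of the libraries of nab>prosRNAi, chinmoRNAi, and the log2 fold change was -0.38 (SE 0.22, limma adjusted p = 0.227). In nab>prosRNAi, chinmo against nab>prosRNAi it was -0.81 (SE 0.32, limma adjusted p = 0.125).

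Lcch3 was at 1788, 2188 and 2052 normalized counts in nab>prosRNAi, chinmoRNAi, at 904, 931 and 1303 in nab>prosRNAi, and at 513, 620 and 315 in nab>prosRNAi, chinmo. The 3 genotypes were clear of each other. Lcch3 fell by 0.96 in the first comparison (SE 0.16, limma adjusted p = 0.00448) and by 1.15 in the second (SE 0.27, limma adjusted p = 0.0306). Grd was low, at 39.0, 38.9 and 22.5 in nab>prosRNAi, chinmoRNAi, at 22.3, 25.1 and 29.1 in nab>prosRNAi, and at 30.4, 29.9 and 10.4 in nab>prosRNAi, chinmo. All 3 genotypes overlapped, and with 9 to 42 reads per library a change of modest size was not detectable for Grd. Its log2 fold change was -0.35 (95% interval -1.15 to 0.46) in the first comparison and -0.24 (-1.38 to 0.89) in the second. Exons of Lcch3 overlap those of Ranbp16 and of an antisense RNA on the opposite strand, and those of Grd overlap CG5577 in the same way. The libraries were stranded and counted by strand.

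GABA-B-R1 encodes the GABA-binding subunit of the metabotropic GABA-B receptor, which works as a dimer with GABA-B-R2. It was at 1290, 1549 and 1004 normalized counts in nab>prosRNAi, chinmoRNAi, at 680, 712 and 1017 in nab>prosRNAi, and at 566, 665 and 356 in nab>prosRNAi, chinmo. Both genotypes overlapped only through their replicates C, with nab>prosRNAi at 1017 and nab>prosRNAi, chinmoRNAi at 1004. GABA-B-R1 fell by 0.67 in the first comparison (SE 0.21, limma adjusted p = 0.0420), and its log2 fold change in the second was -0.62 (SE 0.26, limma adjusted p = 0.137).

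Set side by side, the first comparison was read as nab>prosRNAi over nab>prosRNAi, chinmoRNAi. A gene that is lower or falls in it was therefore higher with chinmoRNAi, and a gene that rises was lower with chinmoRNAi. Of the 9 genes tested, 5 were lower in nab>prosRNAi (Glu-RI, Lcch3, Nmdar2, GABA-B-R1 and Glu-RIB) and 0 were higher by limma, 0 at an unadjusted p under 0.05, 0 by edgeR and 0 by DESeq2. Over all 11470 genes tested 17.9% were lower and 14.1% higher, and quantile normalization turned that split to 1729 lower and 2184 higher. The median log2 fold change of the receptor genes was -0.67, beside -0.05 over all genes and -0.72 over the 12 neuronal markers, of which 8 were lower. The genotypes did not overlap for 4 of the 9, as for 25.8% of all genes in that direction. Glu-RI and Lcch3 were called whichever library was left out, and they were the only 2 receptor genes called without replicate A or B of nab>prosRNAi, chinmoRNAi, or without replicate A or B of nab>prosRNAi. Leaving out replicate C of either genotype raised the count to 7.

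The second comparison asked what added Chinmo changed, read as nab>prosRNAi, chinmo over nab>prosRNAi. Glu-RI and Lcch3 fell, 2 of 9, and 0 rose by limma, at an unadjusted p under 0.05, by edgeR or by DESeq2. The background was 8.26% lower and 9.74% higher over 11057 genes, with 1621 lower and 817 higher when every library was scaled to the same total, and 744 lower and 1336 higher by edgeR. All 9 log2 fold changes were negative, with a median of -0.81 beside -0.02 over all genes and -0.83 over the neuronal markers, of which 2 were lower. The genotypes did not overlap for 8 of the 9 receptor genes, against 22.2% of all genes. The calls depended on single libraries. None was left without replicate A of nab>prosRNAi, chinmo or without any 1 replicate of nab>prosRNAi, Lcch3 alone was left without replicate B of nab>prosRNAi, chinmo, and both were kept without its replicate C. This comparison shares its nab>prosRNAi libraries with the first.

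Between the extreme genotypes, nab>prosRNAi, chinmo over nab>prosRNAi, chinmoRNAi, 8 of 9 fell and 0 rose by limma, at an unadjusted p under 0.05, by edgeR or by DESeq2. The background was 22.7% lower and 19.9% higher of 11586 genes (2964 lower and 1608 higher at the same total, 2184 lower and 2947 higher after quantile normalization). Lcch3 fell by 2.11 (SE 0.25, limma adjusted p = 0.000739), Glu-RI by 1.98 (SE 0.22, limma adjusted p = 0.000636) and Glu-RIB by 1.90 (SE 0.36, limma adjusted p = 0.00483). GluClalpha fell by 1.50, Nmdar2 by 1.41, Nmdar1 by 1.31, GABA-B-R1 by 1.30 and Rdl by 1.19, with limma adjusted p from 0.00244 to 0.0198. The same 8 genes did not overlap between the genotypes, against 28.7% of all genes. The median of the 9 was -1.41, beside -1.57 over the neuronal markers, of which 11 were lower, and -0.03 over all genes. Rdl was lost without replicate A or B of nab>prosRNAi, chinmoRNAi, with limma adjusted p of 0.052 and 0.062.

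**Figure D3:**
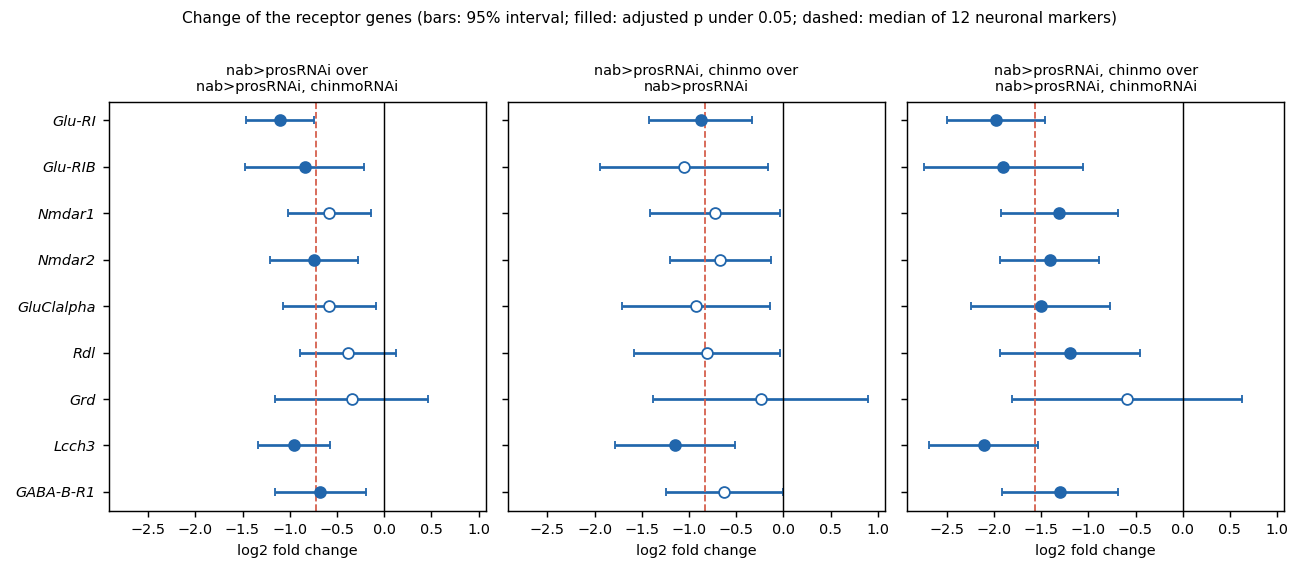
Log2 fold change (x axis) of the 9 tested receptor genes (y axis) in the 3 comparisons, with 95% intervals, filled points where the adjusted p was under 0.05, and a dashed line at the median of 12 neuronal markers. The dashed line falls inside every interval except that of Glu-RI in the first comparison, and 5, 2 and 8 points are filled from left to right.

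Whether both steps differed in size was tested gene by gene, as the log2 step from nab>prosRNAi to nab>prosRNAi, chinmo less the step from nab>prosRNAi, chinmoRNAi to nab>prosRNAi. In limma over all 9 libraries, 0 of 9 receptor genes passed and 0 had an unadjusted p under 0.05, and edgeR called 0, where 6.92% of 11862 genes passed. The differences ran from -0.43 for Rdl (95% interval -1.63 to 0.77) to 0.23 for Glu-RI (-0.60 to 1.05), so steps of unequal size were not detectable within these wide intervals.

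Replicates of 1 genotype differed in the receptor genes as a body. Over the 9 tested genes, replicate C of nab>prosRNAi stood a median of 0.55 above the mean of the other 2 replicates on the log2 scale, with all 9 higher. In nab>prosRNAi, chinmo, replicates A, B and C stood at 0.22, 0.68 and -0.90, with all 9 higher in A and B and lower in C, and in nab>prosRNAi, chinmoRNAi at -0.04, 0.44 and -0.42. Replicates A and B of nab>prosRNAi stood at -0.30 and -0.22. Neuronal markers stood at -0.26, -0.29 and 0.56 in replicates A, B and C of nab>prosRNAi, at 0.24, 0.62 and -0.88 in nab>prosRNAi, chinmo and at -0.05, 0.38 and -0.36 in nab>prosRNAi, chinmoRNAi, while the median over all genes stayed between -0.14 and 0.07. Muscle markers stood at -0.52, -0.67 and 1.19, at 1.56, 0.24 and -1.68, and at 0.04, 0.07 and -0.29 in the same order. The part of these differences in the receptor values was not tested beyond the comparisons that follow.

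Each receptor gene was therefore also measured against the mean log2 level of the 12 neuronal markers in the same library. The median SD among replicates of a genotype shrank from 0.30 to 0.12 in nab>prosRNAi, chinmoRNAi, from 0.32 to 0.09 in nab>prosRNAi and from 0.54 to 0.14 in nab>prosRNAi, chinmo, and it was smaller for 8, 9 and 9 of the 9 genes. On this scale Nmdar1 moved by 0.02, 0.01 and 0.03 in the 3 comparisons (95% interval of the last -0.54 to 0.59). GABA-B-R1 moved by -0.08, 0.11 and 0.03 and Nmdar2 by -0.14, 0.07 and -0.08. Between the extremes the 95% intervals were -0.55 to 0.61 for GABA-B-R1 and -0.65 to 0.49 for Nmdar2. These intervals rest on eBayes, which draws the variance of each gene towards that of all genes on this scale. They are wider than the spread of the replicates alone, with SDs of GABA-B-R1 of 0.12 in nab>prosRNAi, chinmoRNAi and 0.03 in nab>prosRNAi, chinmo. In this test a difference from the neuronal markers of up to the interval sizes was not detectable. The median over all genes was 0.55, 0.71 and 1.30 on this scale, since the neuronal markers themselves were lower.

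Glu-RI passed this relative test in the first comparison and Lcch3 between the extremes, each in that comparison alone. Glu-RI stood at -2.27, -2.38 and -2.30 in nab>prosRNAi, chinmoRNAi, at -2.89, -2.72 and -2.86 in nab>prosRNAi, and at -2.77, -3.20 and -2.93 in nab>prosRNAi, chinmo, as log2 level less the marker mean. The first genotype was clear of both others, which overlapped. Glu-RI fell by 0.50 in the first comparison (SE 0.17, limma adjusted p = 0.0424), the only call of 9, where 5.56% of genes were lower, and its relative log2 fold change between the extremes was -0.65 (SE 0.27, limma adjusted p = 0.0552). Lcch3 stood at -2.28, -2.24 and -1.92, at -2.56, -2.48 and -2.47, and at -2.89, -2.91 and -2.96 in the same order, with no overlap. It fell by 0.78 between the extremes (SE 0.27, limma adjusted p = 0.0245), the only call of 9 there, against 4.07% of genes.

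In nab>prosRNAi, chinmo over nab>prosRNAi, 0 of 9 relative values passed in limma and 0 had an unadjusted p under 0.05, beside 0.163% of all genes lower. The relative log2 fold change of Lcch3 there was -0.42, without overlap, with SDs of 0.045 in nab>prosRNAi and 0.036 in nab>prosRNAi, chinmo. The variance in this test is drawn towards that of all genes, so the missing call does not show that Lcch3 followed the neuronal markers. The edgeR and DESeq2 tests were not run on relative values. Both calls were lost with elav alone in place of the list (Glu-RI -0.36, limma adjusted p = 0.153, and Lcch3 -0.55, limma adjusted p = 0.143) and with Syx1A left out of it (-0.45, limma adjusted p = 0.0711, and -0.66, limma adjusted p = 0.0578). That of Glu-RI was kept only without replicate C of nab>prosRNAi and was lost without any other single library. That of Lcch3 was lost without replicate A of nab>prosRNAi, chinmo or without any 1 replicate of nab>prosRNAi, chinmoRNAi. Glu-RIB moved by -0.24, -0.32 and -0.57 and Grd by 0.25, 0.49 and 0.74, none past the threshold.

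**Figure D4:**
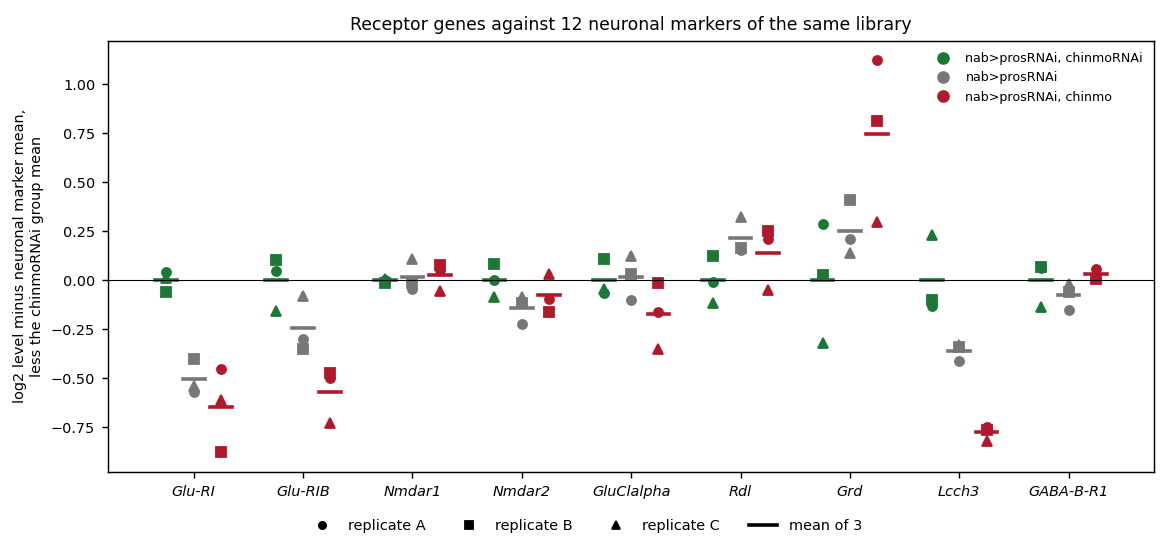
Log2 level less the mean log2 level of 12 neuronal markers in the same library (y axis), set to 0 at the mean of nab>prosRNAi, chinmoRNAi, for 9 receptor genes (x axis) in each library, with lines at the mean of 3. Lcch3 descends by genotype to -0.78, Glu-RI reaches -0.65 with overlap between nab>prosRNAi and nab>prosRNAi, chinmo, and Grd rises to 0.74. Of these values in nab>prosRNAi, chinmo only that of Lcch3 passed the test. The means of Nmdar1 and GABA-B-R1 stay between -0.08 and 0.03.

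Ratios of reads between 2 receptor genes in 1 library do not depend on size factors. Ratios were taken for 5 pairs, chosen with the values known, and give 15 comparisons, in which 3 libraries against 3 cannot reach an exact permutation p under 0.10. The Lcch3 to Rdl ratio was 0.360, 0.335 and 0.498 in nab>prosRNAi, chinmoRNAi, 0.264, 0.276 and 0.249 in nab>prosRNAi, and 0.201, 0.194 and 0.229 in nab>prosRNAi, chinmo. It separated all 3 genotypes without overlap (two-sided exact permutation p = 0.1 in each comparison, the smallest possible, adjusted p = 0.214). Within nab>prosRNAi and nab>prosRNAi, chinmo it varied little, though Rdl itself ranged from 3374 to 5231 and from 1372 to 3191 there.

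Differences between libraries and between genotypes varied with transcript length, for reasons not tested, and the longest transcript of Rdl has 8589 bases against 1903 for Lcch3. Among genes within 20% of the length of Rdl, the median log2 difference of nab>prosRNAi, chinmo from nab>prosRNAi, chinmoRNAi was -0.28 over 376 genes, and among those near the length of Lcch3 it was 0.12 over 1925 genes. The mean log2 difference of the Lcch3 to Rdl ratio in that comparison was -0.92, and the part of length in it was not tested. In replicate C of nab>prosRNAi, chinmoRNAi, where the ratio was highest, the median of genes near the length of Rdl was -0.44 against the other replicates and that of genes near the length of Lcch3 was -0.05.

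GluClalpha to Rdl, a glutamate-gated against a GABA-gated chloride channel, was 0.470, 0.481 and 0.512 in nab>prosRNAi, chinmoRNAi, 0.408, 0.444 and 0.425 in nab>prosRNAi, and 0.376, 0.407 and 0.395 in nab>prosRNAi, chinmo. It also descended without overlap, by 0.31 on the log2 scale between the extremes (two-sided exact permutation p = 0.1). The NMDA pair kept close to parity in reads, with Nmdar2 to Nmdar1 between 1.19 and 1.36 in nab>prosRNAi, chinmoRNAi, between 1.11 and 1.18 in nab>prosRNAi and between 1.08 and 1.35 in nab>prosRNAi, chinmo. It was lower without overlap in nab>prosRNAi than in nab>prosRNAi, chinmoRNAi (two-sided exact permutation p = 0.1) and overlapped in the other comparisons. GABA-B-R1 to GABA-B-R2 ran from 0.190 to 0.287 over all 9 libraries and Glu-RIB to Glu-RI from 0.117 to 0.180, with overlap in every comparison.

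**Figure D5:**
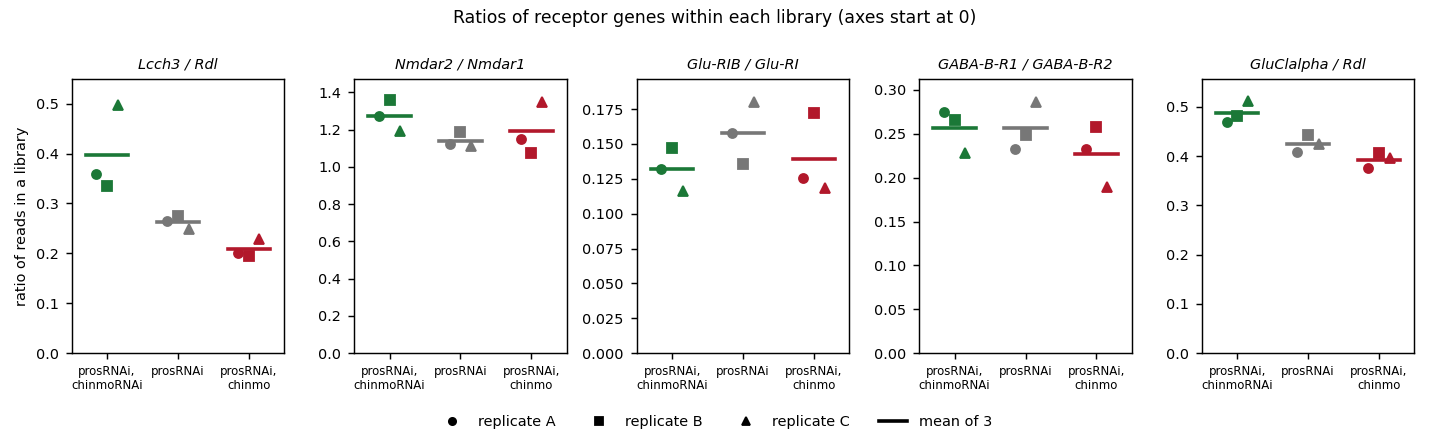
Ratio of reads between 2 genes within each library (y axis, starting at 0) for 5 pairs in the 3 genotypes (x axis), with the symbol giving the replicate and the line the mean of 3. Lcch3 / Rdl falls from a mean of 0.397 over 0.263 to 0.208 and GluClalpha / Rdl from 0.488 over 0.425 to 0.393, while Glu-RIB / Glu-RI and GABA-B-R1 / GABA-B-R2 overlap throughout and Nmdar2 / Nmdar1 in 2 of 3 comparisons.

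Genes with the most similar course over the 9 libraries were found by the root mean square (RMS) difference of log2 values, each centred on its own mean, among 8695 other genes with a mean of at least 50. GABA-B-R1 lay closest to Hk, which encodes a potassium channel beta subunit, at 0.03, and Rdl to CG42795 at 0.05. Nmdar1 lay closest to Frq2, a calcium sensor of synaptic terminals, at 0.06, and GluClalpha to qvr, a regulator of Shaker potassium channels, at 0.06. Nmdar2 was nearest to tutl, an immunoglobulin superfamily protein, at 0.06, Glu-RI to CG34354 at 0.06, Glu-RIB to dpr9 at 0.08 and Lcch3 to CG10253 at 0.09. Among the receptor genes themselves the closest pair was Nmdar2 with GABA-B-R1 at 0.07, while the nearest receptor gene to Lcch3 was Glu-RI at 0.18.

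Other genes of glutamate and GABA signalling were taken as 6 lists with 44 genes. In nab>prosRNAi over nab>prosRNAi, chinmoRNAi, 19 of 43 tested were lower and 3 higher, with a median log2 fold change of -0.58. In nab>prosRNAi, chinmo over nab>prosRNAi, 5 of 41 were lower and 3 higher with a median of -0.45, and between the extremes 25 of 43 were lower and 3 higher with a median of -1.30. Over all genes 17.9%, 8.26% and 22.7% were lower and 14.1%, 9.74% and 19.9% higher in the same order, so the counts of the second comparison lie near the background. Without replicate B of nab>prosRNAi the first count of lower genes was 12, and the second count ran from 0 to 2 whichever library was left out.

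Both other GABA-B subunits were lower in the first comparison, GABA-B-R2 by 0.67 and GABA-B-R3 by 1.17 (SE 0.14 and 0.19, limma adjusted p = 0.00951 and 0.00383), and again between the extremes, and neither passed in the second. Of the 2 metabotropic glutamate receptors, mtt encodes a receptor for the amino acid L-canavanine. In nab>prosRNAi mtt was lower than in nab>prosRNAi, chinmoRNAi by 1.64 (SE 0.20, limma adjusted p = 0.00136). Between the extremes mtt fell by 2.49 (SE 0.26, limma adjusted p = 0.000524). mGluRA, the glutamate-binding one, fell by 1.49 between the extremes (SE 0.33, limma adjusted p = 0.0101).

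Among 9 other ionotropic glutamate receptor genes, 1 was lower in the first comparison, 1 lower and 1 higher in the second, and 4 lower between the extremes. In the first comparison and the second these counts of 1 are near or below the share of all genes called, and they show nothing particular to the list. CG11155, a kainate-type subunit, fell by 1.03 in the first (SE 0.14, limma adjusted p = 0.00186) and by 1.30 between the extremes (SE 0.16, limma adjusted p = 0.000922). Per kb it was the most abundant of the 3 named here in nab>prosRNAi, chinmoRNAi and in nab>prosRNAi. In nab>prosRNAi, chinmo it lay beside CG3822, at 675 and 680 per kb. CG3822, the kainate-type subunit KaiR1D, took another course, at 2342, 2957 and 2091 normalized counts in nab>prosRNAi, chinmoRNAi, at 1759, 1590 and 2010 in nab>prosRNAi and at 2478, 2740 and 2145 in nab>prosRNAi, chinmo. It was lowest in nab>prosRNAi and rose by 0.46 in the second comparison (SE 0.12, limma adjusted p = 0.0419), a call lost in 8 of 20 alternatives. CG5621, at 51.2 ± 23.2 (SD, n = 3) in nab>prosRNAi, chinmoRNAi and 13.8 ± 7.95 in nab>prosRNAi, chinmo, fell by 1.94 between the extremes (SE 0.61, limma adjusted p = 0.0370).

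Of 8 other Cys-loop channel genes, 2 of 7 tested were lower in the first comparison, 1 of 5 in the second and 3 of 7 between the extremes. Over all genes 17.9%, 8.26% and 22.7% were lower, and with so few genes these counts show nothing particular to the list. HisCl1, a histamine-gated chloride channel, fell by 0.66 and by 1.06 in the 2 steps (SE 0.21 and 0.28, limma adjusted p = 0.0449 and 0.0463), and each of these calls was lost in 10 or more of 20 alternatives. The pH-sensitive chloride channel pHCl fell by 0.92 in the first comparison and by 1.69 between the extremes (SE 0.18 and 0.28, limma adjusted p = 0.00818 and 0.00282).

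Of 10 genes that make, carry and break down both transmitters, 5 were lower and 2 higher in the first comparison. The second had 1 lower and 2 higher, and the comparison of the extremes 5 lower and 2 higher. Over all genes 17.9%, 8.26% and 22.7% were lower and 14.1%, 9.74% and 19.9% higher in that order. The counts of higher genes, and the 1 lower in the second comparison, lie near these shares. Gdh, glutamate dehydrogenase, averaged 9646 ± 1516 normalized counts in nab>prosRNAi, chinmoRNAi (SD over 3 libraries), 13951 ± 2348 in nab>prosRNAi and 26214 ± 2406 in nab>prosRNAi, chinmo, and rose by 0.53 and 0.92 in the 2 steps (SE 0.16 and 0.13, limma adjusted p = 0.0393 and 0.00607). The first of these calls was lost in 9 of 20 alternatives. Gs2 and Eaat1 of this list also belong to the glial markers. Gs1, a glutamine synthetase, averaged 5822 ± 43.6, 1742 ± 236 and 1113 ± 120 and fell by 1.75 and 0.64 (SE 0.12 and 0.13, limma adjusted p = 0.000187 and 0.0179).

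Among 13 partners and effectors 8 were lower and 1 higher in the first comparison, 2 lower in the second, and 9 lower and 1 higher between the extremes. Over all genes 17.9%, 8.26% and 22.7% were lower, so the count of the second comparison lies near that share. The inwardly rectifying potassium channel genes Irk2 and Irk3, of the channel family that GABA-B receptors open in mammals, went opposite ways. In nab>prosRNAi, Irk2 was lower than in nab>prosRNAi, chinmoRNAi by 1.87 (SE 0.27, limma adjusted p = 0.00239). Irk3 was higher by 1.02 (SE 0.18, limma adjusted p = 0.00458), and the log2 fold changes of Irk2 and Irk3 between the extremes were -2.05 and 1.16. In the second comparison the PDZ adaptor gene Grip fell by 0.56 (SE 0.13, limma adjusted p = 0.0306) and the scaffold gene homer by 0.22 (SE 0.06, limma adjusted p = 0.0490), calls lost in 8 and 11 of 20 alternatives.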

How the data were processed

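The authors dissected and pooled VNCs, made stranded libraries, aligned reads with TopHat 2.0.9 and Bowtie 2.1.0 to dm3, counted reads per gene and strand with HTSeq 0.5.3p9 and normalized with DESeq. The deposited values are a normalized signal, namely reads divided by a size factor per library, and 100% of them were whole multiples of 1 read (within 0.01 reads), so reads were recovered. Replicate libraries differed by more than sampling noise (chi-square per degree of freedom 28.9 to 313).

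The receptor genes and the lists were chosen with earlier results of these data known. Each comparison was fitted to its 6 libraries with limma 3.58.1 (R 4.3.3) after adding a pseudocount of 1 and taking log2, which understates changes of low genes. Genes with a summed value under 15 were left out. Moderation used eBayes with a trend and p-values had Benjamini-Hochberg adjustment, with a threshold of 0.05. The step difference used all 9 libraries. Fold changes are on the log2(value + 1) scale. The relative test subtracted the mean log2 level of elav, n-syb, Syt1, brp, cpx, Syx1A, Snap25, Syn, Appl, nrv3, para and futsch. Read ratios were compared by exact permutation. All 10 receptor genes are named, and of each related list the called genes with the highest and lowest fold change among those with a mean of at least 50 in a group. Transcript lengths came from a later annotation and no coordinates are given.

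Alternatives were pseudocounts of 0.5 and 10, no filter or a mean of at least 10, 4 other scalings, eBayes without a trend, all 9 libraries in a fit, edgeR 4.0.16 and DESeq2 1.42.0 on recovered reads, a replicate block, removal of each library's length trend within its genotype, and each library left out. For relative values, the length trend and the list without Syx1A were added after seeing the data. The sources used here do not state which libraries were prepared together, so p-values measure the spread between these samples. At a depth of 30677075 to 43415151 reads, the floor was 3 reads, and low genes such as Grd (9 to 42 reads) were measured with little precision. Sequences of these genes were not analysed here.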

Additional observations from a re-analysis of the deposited data

How the results depend on the processing

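Direction was kept for the receptor genes in all 20 alternatives of each comparison except Grd, which read 0.043 in nab>prosRNAi over nab>prosRNAi, chinmoRNAi after quantile normalization and, in nab>prosRNAi, chinmo over nab>prosRNAi, 0.24 without replicate C of nab>prosRNAi, chinmo (range -0.49 to 0.24 with 1 library left out). Gad1 ran from -0.18 to 0.24 in the first comparison. Of the receptor genes lower in the first comparison, 5 in the main test, quantile normalization, the fit of all 9 libraries and edgeR each gave 3, eBayes without a trend gave 2, and leaving out 1 library gave 2 to 7. Of the 2 lower in the second, eBayes without a trend gave 0, edgeR 1, DESeq2 5, and leaving out 1 library 0 to 2. Between the extremes the count was 7 to 8 whichever library was left out. Of the calls relative to neuronal markers, 1 in the first comparison and 1 between the extremes, elav alone gave 0 and 0, the list without Syx1A 0 and 0, the length trend removed 1 and 2, and leaving out 1 library 0 to 1 and 0 to 2. Related genes lower in the second comparison, 5 in the main test, were 3 with no filter, without a trend and by edgeR, 12 by DESeq2, and 0 to 2 with 1 library left out, while those lower in the first were 12 to 22. Related genes higher in the first, 3 in the main test, were 1 without a trend and 1 to 2 with 1 library left out, those higher in the second 1 to 3, and those higher between the extremes 5 after quantile normalization.

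No common pairing of libraries by replicate letter was seen, with same-letter deviations correlated from -0.55 to 0.48. With 3 libraries a genotype this check cannot exclude that some libraries shared a batch. A replicate block gave 2 receptor genes lower in the first comparison and 0 in the second, 0 and 0 related genes lower and higher in the second, and 0 and 2 relative calls in the first comparison and between the extremes. Removing the length trend within genotypes alters the spread and not the fold changes. Quantile normalization moved the median of all genes from -0.05 to 0.08, from -0.02 to 0.00 and from -0.03 to 0.12, and the same total moved it to -0.10, -0.10 and -0.15. The cause of these differences was not tested. With 3 libraries a genotype and this depth, clumsy and Grd were the genes least well measured.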

Other observations

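The transmitter that neurons release is marked by VGlut, VGAT and Gad1, which were looked at after their values were seen. VGlut, the vesicular glutamate transporter, was at 7471, 8921 and 7423 normalized counts in nab>prosRNAi, chinmoRNAi, at 3638, 3601 and 5097 in nab>prosRNAi and at 2510, 3014 and 1399 in nab>prosRNAi, chinmo. VGAT, the vesicular GABA transporter, was at 1775, 2116 and 1666, at 829, 830 and 1232, and at 562, 740 and 309 in the same order. Both fell in nab>prosRNAi over nab>prosRNAi, chinmoRNAi by 0.96 on the log2 scale (SE 0.16 and 0.18, limma adjusted p = 0.00381 and 0.00633), in 20 of 20 alternatives, and neither passed in nab>prosRNAi, chinmo over nab>prosRNAi. Gad1, which encodes the enzyme that makes GABA, was at 4745, 6418 and 4721, at 4863, 4370 and 7847, and at 3869, 4589 and 1669. Its libraries overlapped in the first comparison, where the log2 fold change was 0.07 (95% interval -0.46 to 0.61, limma adjusted p = 0.840) and ran from -0.18 to 0.24 with 1 library left out. Between the extremes VGlut and VGAT fell by 1.85 and 1.87, and Gad1 had a log2 fold change of -0.76 (limma adjusted p = 0.134).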
